A study of Mus musculus with 2 samples.

Results

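The genes of the cytosolic ribosome were examined in newborn mouse skeletal muscle. Members were chosen by name: protein-coding genes whose symbol starts with Rpl or Rps and a number, with Rplp0, Rplp1, Rplp2 and Rpsa, and without the Rps6 kinases and the symbols ending in -ps. This gave 86 genes of the 43346 gene rows, of which 21474 matched a protein-coding gene. All 86 had a row for each animal. They comprised 77 core genes, 46 for the large and 31 for the small subunit, 8 paralogs (Rpl3l, Rpl7l1, Rpl10l, Rpl22l1, Rpl36al, Rpl39l, Rps27l and Rps27rt) and Rps19bp1, which encodes a partner of the Rps19 protein and not a ribosomal protein. The tissue came from mice of strain B6NCrl at postnatal day 0, as 1 group of 2 pups of 1 pregnancy, and the labels name no mutation and no treatment. The labels give both pups the same donor entry and state no sex. Total RNA longer than 200 nt was sequenced, with 10 ng per library. With 1 library per pup and no other group, no test between groups was possible, so the spread between pups is the only error, and it is given as an SD (n = 2).

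Ribosomal proteins are assembled with ribosomal RNA in the nucleolus, and each core protein is present once, or for the acidic stalk proteins a few times, in a finished ribosome. In mammals a single intron-containing gene usually encodes each protein, while reverse transcription of their abundant mRNAs has left many intronless copies, or processed pseudogenes, across the genome. Their mRNAs begin with a C followed by a run of pyrimidines, the terminal oligopyrimidine tract, through which the mTORC1 kinase adjusts their translation. A few have paralogs with tissue preferences: Rpl3l is a striated muscle form of Rpl3, and Rpl10l and Rpl39l are known from the male germ line.

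The libraries held 40455042 and 37151129 expected counts (reads assigned to genes by a model) in pups 1 and 2. Muscle markers were present: all 10 genes of a muscle list were at or above 1 TPM (transcripts per 1000000), with summed levels of 132910 and 145692 TPM. The pups differed in markers of neighbouring tissues. A list of 12 epidermal genes summed to 512 TPM in pup 1 and 13.0 TPM in pup 2, 10 cartilage genes to 63.5 and 5.61 TPM, and 10 adipocyte genes to 5193 and 915 TPM. Flg of the epidermal list and Snorc of the cartilage list had 0 counts in pup 2. In bulk tissue, fewer cells of a type and less RNA per cell cannot be told apart.

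The coding sequences of the paralog pairs, read from the GENCODE transcripts for the form with the largest share of each gene's level, show how easily their reads can be told apart. The first 120 coding bases are given for the pairs in which the paralog was within a few-fold of its parent, and for Rpl3 and Rpl3l, with capitals at each base that differs from the partner or faces a gap.
Rpl3: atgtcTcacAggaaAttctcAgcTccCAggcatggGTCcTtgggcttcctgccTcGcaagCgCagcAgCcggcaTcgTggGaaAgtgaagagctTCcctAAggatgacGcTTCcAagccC
Rpl3l: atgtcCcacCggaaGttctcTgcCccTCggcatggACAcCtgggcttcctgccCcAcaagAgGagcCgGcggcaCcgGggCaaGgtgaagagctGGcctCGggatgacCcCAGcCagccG
Rpl22: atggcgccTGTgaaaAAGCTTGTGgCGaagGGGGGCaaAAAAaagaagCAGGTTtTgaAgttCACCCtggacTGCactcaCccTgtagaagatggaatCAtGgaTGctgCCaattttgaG
Rpl22l1: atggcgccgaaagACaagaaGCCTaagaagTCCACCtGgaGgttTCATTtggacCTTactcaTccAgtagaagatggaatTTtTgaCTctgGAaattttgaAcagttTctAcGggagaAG
Rpl36a: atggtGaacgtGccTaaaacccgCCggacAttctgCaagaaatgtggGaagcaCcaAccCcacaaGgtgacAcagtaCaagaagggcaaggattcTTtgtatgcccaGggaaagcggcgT
Rpl36al: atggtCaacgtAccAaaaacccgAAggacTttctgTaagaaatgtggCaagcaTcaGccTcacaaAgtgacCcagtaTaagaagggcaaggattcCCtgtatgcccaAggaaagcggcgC
Rps27: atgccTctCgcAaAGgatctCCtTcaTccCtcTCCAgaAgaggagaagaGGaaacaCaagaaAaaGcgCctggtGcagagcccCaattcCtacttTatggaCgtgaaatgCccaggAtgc
Rps27l: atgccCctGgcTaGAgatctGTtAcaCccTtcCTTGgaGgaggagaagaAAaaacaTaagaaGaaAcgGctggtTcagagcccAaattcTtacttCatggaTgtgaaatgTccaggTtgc
Rps27rt: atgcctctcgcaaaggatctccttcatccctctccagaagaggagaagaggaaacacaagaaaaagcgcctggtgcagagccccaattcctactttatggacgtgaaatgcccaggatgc
Rpl3 and Rpl3l were identical at 899 of 1208 aligned coding bases (74.4%), Rpl22 and Rpl22l1 at 259 of 366 (70.8%), Rpl36a and Rpl36al at 282 of 321 (87.9%) and Rps27 and Rps27l at 194 of 255 (76.1%). None of these 4 pairs shared a stretch of 100 nt, the read length implied by the difference of 99 nt between length and effective length. Rps27 and Rps27rt were the exception, identical at 255 of 255 bases, so the Rps27rt line, printed without capitals, is also the sequence of Rps27.

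Rpl3l, the striated muscle form of a large-subunit core protein, was present at a level far below that of Rpl3. Rpl3l (chromosome 17, 24727820 to 24736143) measured 40.3 TPM in pup 1 and 52.0 TPM in pup 2. Rpl3 (chromosome 15, 80077791 to 80091868) measured 422 and 389 TPM. The ranges of the 2 genes did not overlap, and Rpl3l held 10.3% ± 2.18 (SD, n = 2) of their summed TPM. The log2 ratio of Rpl3l to Rpl3 was -3.14 ± 0.34 (SD, n = 2). A ratio was called here when its sign was the same in both pups and its mean was over 3 SD in size, a rule that rests on an SD of 2 values; 6 of the 8 pairs met it. They were the pairs of Rpl3l, Rpl7l1, Rpl22l1, Rpl39l and, with 0 counts and an identical coding sequence respectively, Rpl10l and Rps27rt.

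Rpl22l1 and Rpl36al, in contrast, were listed at slightly higher levels than their parents. Rpl22 binds RNA in the large subunit and in the nucleus, and Rpl22l1 is its close relative. Rpl22l1 (chromosome 3, 28805436 to 28807424) measured 280 and 291 TPM in pups 1 and 2, and Rpl22 (chromosome 4, 152325742 to 152334071) 216 and 203 TPM. The log2 ratio was 0.45 ± 0.10 (SD, n = 2), with Rpl22l1 at 57.7% ± 1.75 of the sum, and it was called. This call depended on transcript length: 3447 and 3423 counts of Rpl22l1 faced 3452 and 3166 counts of Rpl22, and without length correction the log2 ratio was 0.055 and was not called. It also rests on all forms of each gene. The form Rpl22l1-209, not annotated as protein-coding, held 40.8% and 34.1% of the Rpl22l1 level. The leading protein-coding form, Rpl22l1-206, measured 131 and 145 TPM, below the 190 and 176 TPM of Rpl22-201, the leading form of Rpl22. Rpl36al (chromosome 12, 69182731 to 69184083) measured 442 and 405 TPM against 329 and 351 TPM for the X-linked Rpl36a. Rpl36al was the higher of the pair in each pup, but the log2 ratio of 0.32 ± 0.15 (SD, n = 2) was within 3 SD of 0. Without length correction it was 0.47 and was called, but its mean was only just over 3 SD.

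The Rps27 family had 3 expressed loci. Rps27l (chromosome 9, 66946086 to 66949516), a paralog induced by Trp53 in other settings, measured 483 and 386 TPM. Rps27 (chromosome 3, 90212522 to 90213651) measured 216 and 296 TPM. Rps27l was higher than Rps27 in each pup, but the distance narrowed from a log2 ratio of 1.16 in pup 1 to 0.38 in pup 2, and the mean of 0.77 ± 0.55 (SD, n = 2) was not called. Without length correction the ratio was 2.13 and was called. The level of Rps27 rests on a division of reads with Rps27rt, and against the summed 1102 and 1360 TPM of Rps27 and Rps27rt the direction turned, with Rps27l lower at a log2 ratio of -1.50 ± 0.44 (SD, n = 2). The file gives Rps27 a length of 255 nt, the length of its coding sequence alone.

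Rps27rt (chromosome 9, 114982366 to 114982739), an intronless copy annotated as a protein-coding retrogene, was listed at 886 and 1064 TPM, with 7178 and 8155 counts. Rps27 had 1006 and 1307 counts, so 86.9% ± 1.08 (SD, n = 2) of the counts of the 2 loci were placed on Rps27rt. The posterior SD of the estimate, deposited with it, was 114 counts in pup 1 and 104 counts in pup 2 for each of the 2 loci. Because the coding sequences printed above do not differ, the log2 ratio of 1.94 ± 0.14 depends on how the quantifier divided shared reads. It also depends on the listed lengths, 255 nt for Rps27 and 370 nt for Rps27rt. Of the 2 loci, only Rps27rt was listed with bases beyond the coding sequence to which reads could be assigned. The files do not show how much RNA each locus made. Only the summed counts of the loci, 8184 and 9462, do not depend on that division; the TPM do, because the effective lengths are 156 nt for Rps27 and 271 nt for Rps27rt.

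The 3 other paralogs were low or absent. Rpl7l1, a relative of Rpl7 that is known to act in ribosome assembly, measured 53.4 and 44.0 TPM against 754 and 790 TPM for Rpl7, a log2 ratio of -3.99 ± 0.25 (SD, n = 2). Rpl39l measured 3.80 and 1.55 TPM, from 77 and 27 counts, against 355 and 370 TPM for Rpl39, a small protein of the peptide exit tunnel. Its log2 ratio to Rpl39 was -7.16 ± 0.92 (SD, n = 2). Rpl10l, an intronless gene, had 0 counts in each pup, which allows up to 3 counts, or 0.109 and 0.115 TPM. Rpl10, at 384 and 385 TPM, was therefore at least 3354-fold higher than Rpl10l in each library. Of 8 germ-line markers, 0 reached 1 TPM and 4 (Acrv1, Prm1, Stra8 and Tnp1) had 0 counts in both pups.

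**Figure D1:**
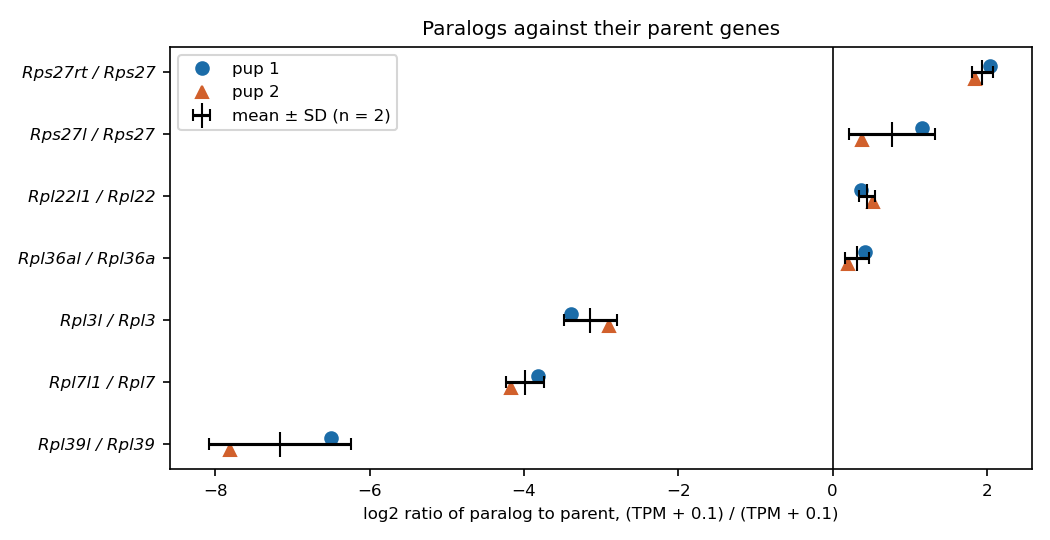
Log2 ratio of each paralog to its parent gene from TPM plus a pseudocount of 0.1, for pup 1 (circles) and pup 2 (triangles), with the mean and SD of the 2 pups as black bars. Rpl3l, Rpl7l1 and Rpl39l lie left of 0 in both pups and the other paralogs right of it; Rpl10l, with 0 counts, is not drawn, and Rps27rt has the same coding sequence as Rps27, on whose listed level the Rps27l point also rests.

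Core genes were among the most abundant messages. Of the 86 members, 85 had a mean of at least 1 TPM, the exception being Rpl10l, beside 58.2% of all protein-coding genes. A mean of at least 100 TPM was reached by 77 members, beside 5.36% of protein-coding genes, and at least 1000 TPM by 8, beside 0.484%. The median core gene had 472 TPM, which lay at percentile 97.9 of the protein-coding genes at or above 1 TPM, whose median was 11.8 TPM. All members together held 4.49% ± 0.0388 (SD, n = 2) of TPM but 1.93% ± 0.0427 of counts. Core genes are short, with a median length of 667 nt against 2407 nt for the protein-coding genes at or above 1 TPM, and TPM weights a read by 1 over its effective length.

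The 8 highest core genes were Rpl41, Rps19, Rpl32, Rpl37a, Rpl36, Rps29, Rps14 and Rps25. Rpl41, which encodes the smallest ribosomal protein, measured 1970 and 2093 TPM in pups 1 and 2. Rps19, the gene most often mutated in Diamond-Blackfan anaemia, measured 1247 and 1336 TPM. Rpl32 measured 1292 and 1250 TPM, Rpl37a 1284 and 1236 TPM and Rpl36 1196 and 1284 TPM. These 4 overlapped between the pups and their order could not be resolved, while Rpl41 stood above all of them in each pup. Rps29 measured 1082 and 1266 TPM and Rps14 1169 and 1145 TPM, and these overlapped too. Rps25, at 1044 and 1034 TPM, lay below them in each pup. The stalk proteins, which recruit translation factors to the large subunit, were alike: Rplp0 measured 736 and 739 TPM, Rplp1 824 and 864 TPM and Rplp2 821 and 765 TPM. Outside the naming rule but part of the ribosome, Fau, a fusion to a small-subunit protein, measured 355 and 369 TPM, and the scaffold protein Rack1 measured 309 and 321 TPM.

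The deposited levels of the core genes spread over 107-fold from Rpl5 to Rpl41, with a coefficient of variation of 62.5% across the 77 genes. The middle of the distribution was narrower, from 328 TPM at the lower quartile to 702 TPM at the upper. Small-subunit genes ranged over 8.62-fold, from 150 TPM for Rps12 to 1292 TPM for Rps19. The pups differed little by comparison: the median SD was 4.61% of the mean, and 9 core genes had an SD over 10% of theirs. Across the 77 core genes longer genes had lower mean levels, with a Spearman rho of -0.32; genes are not independent replicates, and TPM itself contains the length.

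**Figure D2:**
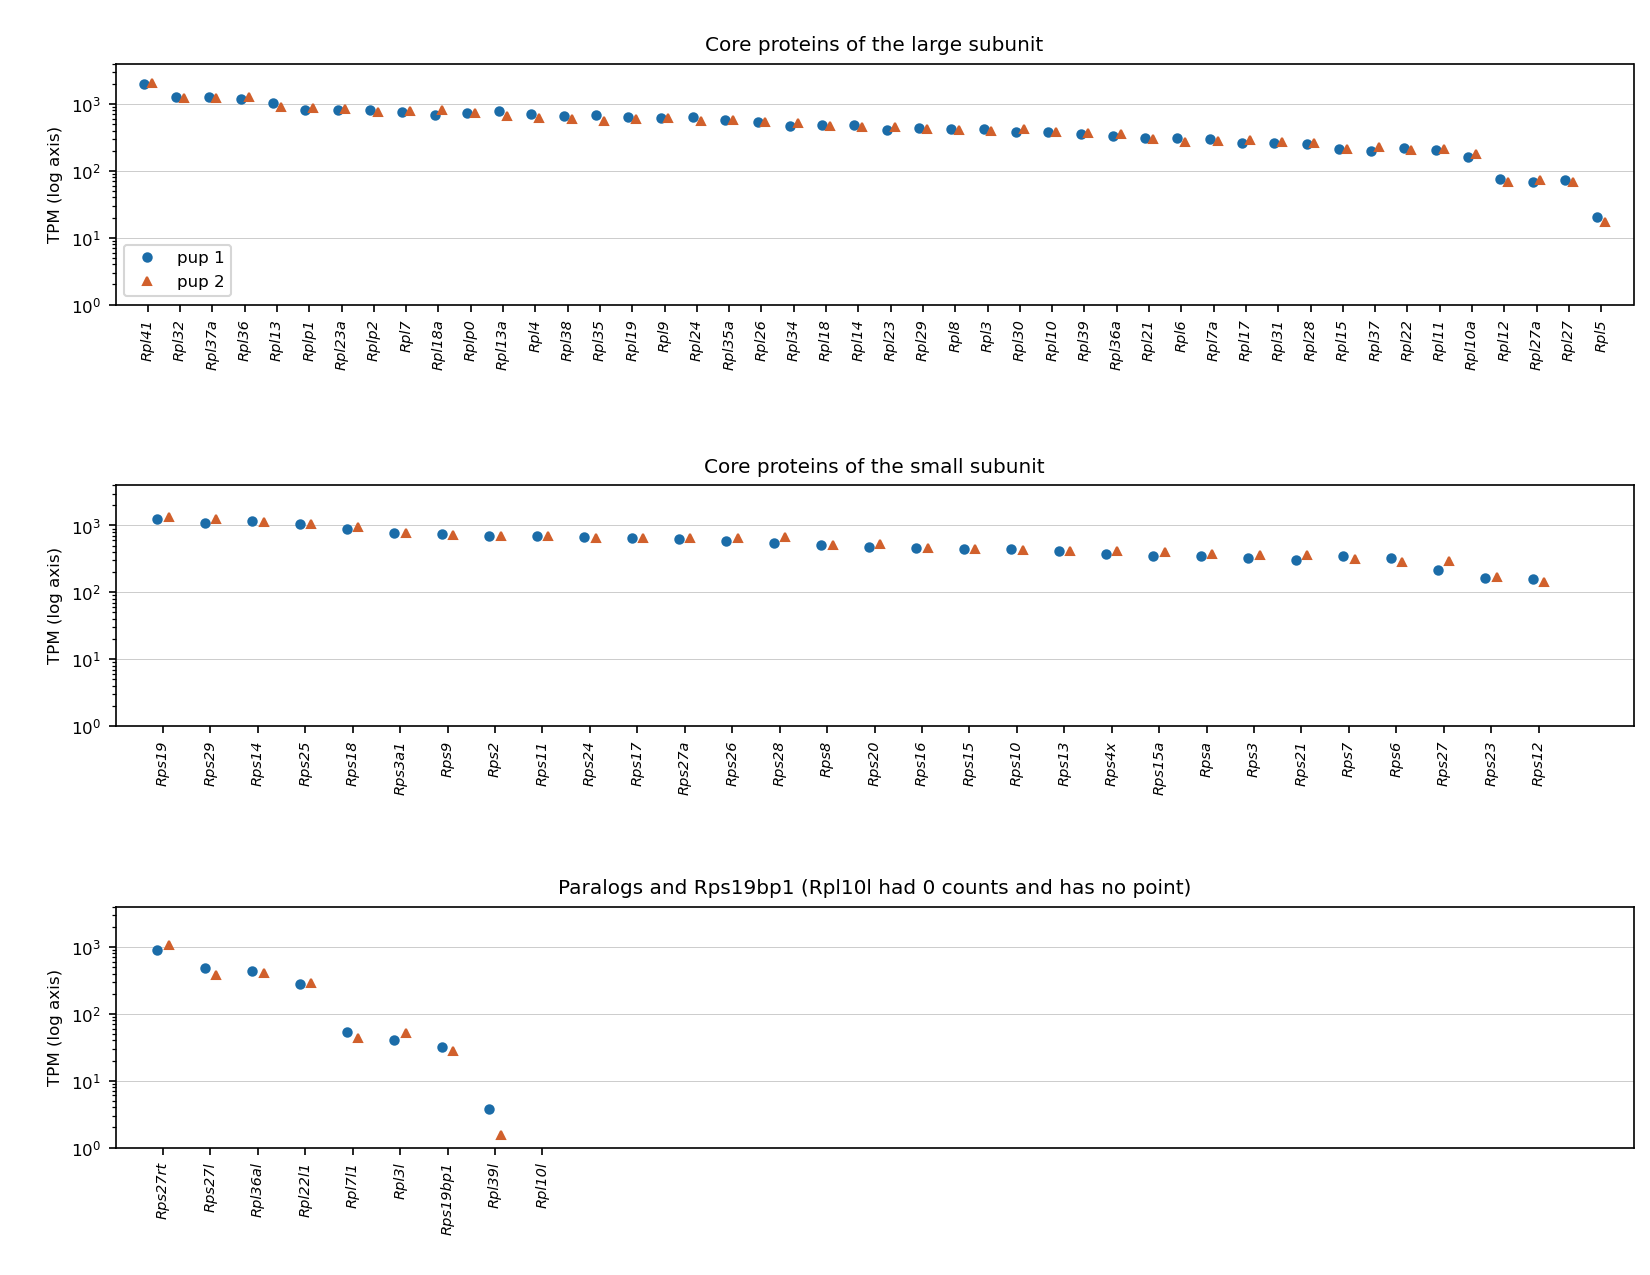
TPM (log axis) of the members, apart from 1 small-subunit gene not reported here, in pup 1 (circles) and pup 2 (triangles), ordered by mean level within the large subunit, the small subunit and the remaining genes. Of the 77 core genes, 62 have a mean between 200 and 1000 TPM, and Rpl12, Rpl27a, Rpl27 and Rpl5 sit apart below 100 TPM.

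The lowest core levels belonged to genes with near-identical copies elsewhere in the genome. The 8 lowest were Rpl5, Rpl27, Rpl27a, Rpl12, Rps12, Rps23, Rpl10a and Rpl11, and reads assigned to copies were counted for each. A copy was a pseudogene, or a predicted or -ps coding gene, whose transcript aligned to the member's mRNA. The alignment had 90% identity or more over at least 100 nt and 50% of the copy's own length. Members were not counted as copies, so Rps27rt was not a copy of Rps27 here. All 8 of the lowest, but 1 of the 8 highest (Rps29), had more than 10% of their combined reads on copies in both pups. The gene's own counts enter both the ranking and this share, and fewer of them raise the share by arithmetic. The contrast between lowest and highest genes is therefore a description and no independent test. In all, 781 copy genes were found, 134 of them with at least 10 mean counts, and 74 of 77 core genes had at least 1 copy. Copies held 14.8% and 15.0% of the reads on core genes and copies together in pups 1 and 2. The share exceeded 10% for 25 core genes and 50% for 8, and was under 1% for 26.

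Rpl5 was the extreme case. Its protein binds a ribosomal RNA and, with Rpl11, the ubiquitin ligase Mdm2. Rpl5 (chromosome 5, 107900502 to 107909005) was listed at 20.7 and 17.2 TPM, from 738 and 575 counts. Its leading copy, Gm15500 (chromosome 7, 114705217 to 114706235, minus strand), held 10061 and 8469 counts. The first 120 bases of the Rpl5 coding sequence and the matching stretch of the copy are shown for comparison. No base differs between them.
Rpl5: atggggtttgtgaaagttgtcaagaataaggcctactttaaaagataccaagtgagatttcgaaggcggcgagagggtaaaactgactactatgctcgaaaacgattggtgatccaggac
Gm15500: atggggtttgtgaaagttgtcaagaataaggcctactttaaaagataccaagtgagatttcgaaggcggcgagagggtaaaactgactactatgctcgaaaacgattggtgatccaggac
Over the whole coding sequence 894 of 894 bases were identical, so every one of the 795 windows of read length within it occurs in both loci. With the counts of its copies added at its own effective length, Rpl5 stood at 303 and 271 TPM, inside the range of the other core genes. The posterior SD deposited for Rpl5 was 37.6 and 34.5 counts, small beside the number of reads placed on the copy.

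The other low genes showed the same division. Rpl27 was listed at 72.5 and 67.3 TPM, and its copies held 86.7% ± 0.799 (SD, n = 2) of the combined reads. With them its mean was 524 TPM. Rps23, at 161 and 169 TPM, had 71.2% ± 0.388 of reads on copies and a mean of 573 TPM with them. Rpl27a, listed at 68.3 and 72.2 TPM, had 68.3% ± 0.359 on copies and 222 TPM with them. Rpl12, listed at 76.5 and 67.3 TPM, had 65.5% ± 3.09 on copies and 208 TPM with them. Rps12 had 57.6% ± 2.30 on copies, and its listed 156 and 143 TPM became 353 TPM. Rpl10a had 49.9% ± 1.00 on copies, and its 160 and 181 TPM became 340 TPM. Rpl11, the partner of Rpl5, had 39.4% ± 1.27 on copies and a mean of 342 TPM with them against 203 and 212 TPM without. Rpl15 (63.9% ± 0.251) and Rpl28 (55.8% ± 1.20) were the other core genes over 50%.

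The division of reads was nearly the same in the pups: the largest SD of the share among the 25 genes was 3.47 percentage points, for Rps7. In 16 of the 25 the leading copy had neither a differing base nor a gap against the coding sequence where they aligned. The lowest share of identical read-length windows was 61.8%, for Rpl21. Among the 23 core genes with a copy but under 1% of reads on copies, 0 had a leading copy without a difference. Their median share of identical windows was 6.36%. Rps27 is 1 of these 23 because Rps27rt was left out as a member. Rps27rt has an identical coding sequence and held 86.9% of the counts of the 2 loci. Between these groups, the leading copy of Rps16 was identical at 441 of 441 bases, while 7.64% ± 2.51 (SD, n = 2) of reads were on copies of that gene. With copies added, an alternative chosen after seeing the data, core levels spread over 9.76-fold instead of 107-fold. The coefficient of variation was then 54.0% instead of 62.5%, and the median 573 TPM instead of 472 TPM. The 8 lowest genes then were Rpl12, Rpl22, Rpl27a, Rps27, Rpl5, Rpl17, Rpl6 and Rpl7a, and 3 of the former 8 remained among them. Rps27 stands there without Rps27rt, and the 2 together had a mean of 1231 TPM. Copy counts were taken at the parent's own effective length, and the spread, the median and this ranking rest on that choice. Rpl37rt, a copy of Rpl37, was by itself listed at 597 and 644 TPM, above the mean of 374 TPM for Rpl37 with copies. The files do not show which locus made a read that fits both, and the levels with copies count every such read as the parent's.

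**Figure D3:**
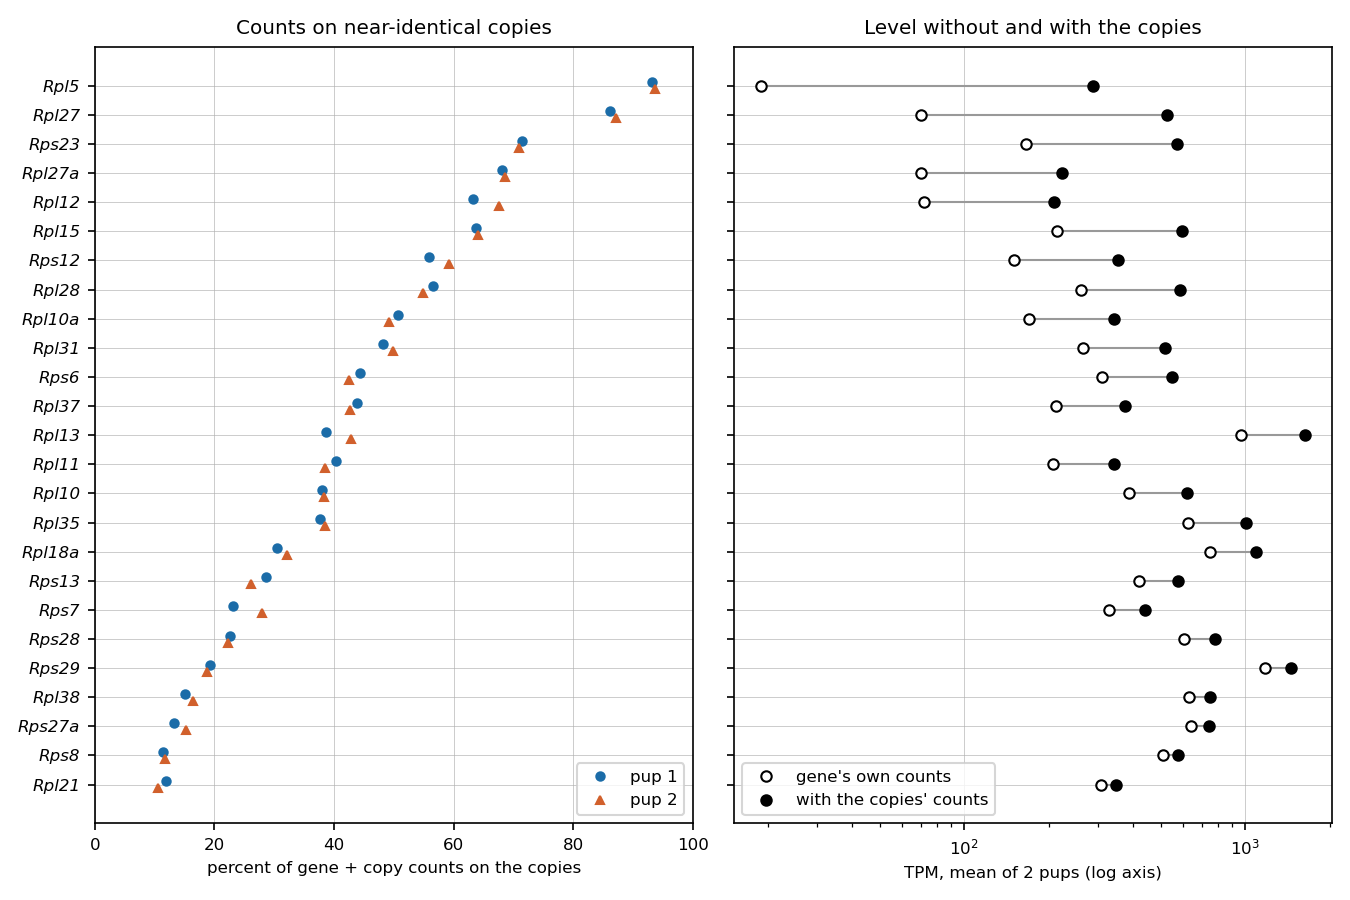
For the 25 core genes with more than 10% of their reads on copies in both pups: left, the percent of the counts of gene and copies together that were placed on copies in pup 1 (circles) and pup 2 (triangles); right, mean TPM of the gene alone (open) and with its copies' counts (filled), on a log axis. Rpl5 moves farthest, from 19.0 to 287 TPM. Copy counts are taken at the gene's own effective length.

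Reads also lay on named loci just outside the naming rule. Rpl37rt, annotated as a transcribed processed pseudogene and identical to Rpl37 at 293 of 294 coding bases, was listed at 597 and 644 TPM against 200 and 225 TPM for Rpl37. Rps4l, a relative of the X-linked Rps4x, held 2691 and 1995 counts, against 9652 and 10116 for Rps4x, and was not among the near-identical copies matched to Rps4x. Among the 252 measured rows with a ribosomal protein symbol that were left out as pseudogenes or -ps symbols, 98 had 0 counts in both pups and 64 had at least 10 mean counts.

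Which transcript carried a core gene was stable between the pups. Of the 85 expressed members, 85 had the same leading transcript, the one with the largest share of the gene's TPM, in both pups. In 78 it held at least 50% in each. Only 62 members had more than 1 listed transcript, and the others meet both conditions by construction. Transcripts annotated as protein-coding held 90.9% and 91.0% of the members' TPM, and retained-intron forms 2.49% and 2.86%. The leading form was annotated as another type than protein-coding in 5 genes and had no matching annotation in 1. Rps20 was led by the retained-intron form Rps20-201 with 93.5% and 93.3% of TPM. This share depends on length, as Rps20-201 is listed at 582 nt and the protein-coding Rps20-203 at 3706 nt. Of expected counts, Rps20-201 held 68.2% and 68.1% and Rps20-203 held 31.3% in each pup. Rpl35 was led by the processed transcript Rpl35-203 with 87.4% and 89.3%, and Rpl23 by the processed transcript Rpl23-204 with 70.6% and 70.8%. Rpl12 was led by Rpl12-201, annotated as a target of nonsense-mediated decay, with 61.1% and 62.6%, and Rpl5 by the retained-intron form Rpl5-205 with 44.2% and 41.3%. These shares cover only the reads left on the gene itself. Copies held 93.4% of the combined reads for Rpl5, 65.5% for Rpl12 and 38.1% for Rpl35. The leading copies of Rpl5 and Rpl12 are identical to the whole coding sequence, so the shares do not show which form made most of their RNA. Rpl13a was led by a form that did not match the reference annotation, with 43.7% and 44.1%. Transcript types are those of a later GENCODE release than the one used for quantification.

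The leading form of 7 genes was under 50% in at least 1 pup. Beside Rpl5 and Rpl13a these were Rpl22l1 (Rpl22l1-206, 46.7% and 49.9%), Rpl27 (Rpl27-201, 47.4% and 48.9%), Rpl38 (Rpl38-204, 50.2% and 47.8%), Rps14 (Rps14-205, 49.8% and 51.5%) and Rps19 (Rps19-210, 45.5% and 51.0%). For Rpl5 the protein-coding form Rpl5-201 led when shares of expected counts were used in place of TPM, and the leading form changed in this way for 4 genes in all.

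In the annotation the core genes lay on 19 chromosomes, with 14 on chromosome 7 and 4 on the X (Rpl10, Rpl36a, Rpl39 and Rps4x). The X-linked genes had a median of 373 TPM, with mean levels from 340 TPM for Rpl36a to 389 TPM for Rps4x. Of these, Rpl10 had 38.1% ± 0.228 (SD, n = 2) of its reads on copies, and its 385 TPM became 621 TPM with them. Every core gene had a coding form with 3 or more exons. Small nucleolar RNA genes, whose products guide the modification of ribosomal RNA, lay on the same strand inside 30 of the 77 core genes, 58 in all.

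The pyrimidine run of these mRNAs was looked for at the annotated start sites. It was searched as a C followed by 4 or more C or T on the gene's strand, beginning within 10 bases of the RefSeq start site (build GRCm38.p6), where 66 of the 86 members had an entry. Of the 67 core promoters of 57 genes, 53.7% held such a run, beside 30.7% of 32851 promoters in all. When the annotated start itself had to be a C followed by 4 or more C or T, whatever came before it, the shares were 19.4% and 2.51%. Windows from 10 bases before to 20 bases from the start are shown, with the run in capitals. They cover some of the genes with long runs, Rps27 and Rps27rt, and Rpl5, which had none. In every window shown with a run, the annotated start is itself such a C, which held for 19.4% of core promoters. Rpl27a and Rpl7a, with runs of 20 and 17 bases but no such C at the start, are not shown.
Rpl14 (chr9:120571507-120571536, plus strand): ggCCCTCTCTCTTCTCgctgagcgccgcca
Rpl15 (chr14:18270967-18270996, minus strand): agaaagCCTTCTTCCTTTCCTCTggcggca
Rpl35 (chr2:39005112-39005141, minus strand): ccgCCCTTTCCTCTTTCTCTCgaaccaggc
Rps10 (chr17:27635225-27635254, minus strand): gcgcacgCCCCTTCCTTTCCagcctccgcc
Rps27 (chr3:90213629-90213658, minus strand): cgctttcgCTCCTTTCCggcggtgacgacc
Rps27rt (chr9:114982720-114982749, minus strand): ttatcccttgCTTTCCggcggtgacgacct
Rpl5 (chr5:107900518-107900547, plus strand): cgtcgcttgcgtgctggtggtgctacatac
The windows of Rps27 and Rps27rt share a stretch of 19 bases, which ends the run of 9 in Rps27 and holds the whole run of 6 in Rps27rt. A run is a description of these letters and no measure of translation, and its absence says only that these letters are not in this window.

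Between the pups, most core genes were slightly higher in pup 2 on the TMM scale. The log2 ratio of pup 2 over pup 1, from counts scaled by TMM (trimmed mean of M-values), had a median of 0.13 over the 77 core genes, from -0.19 to 0.59, and was above 0 in 67 of them. Over all 12379 genes with at least 100 mean counts the median was -0.01 and 48.1% were above 0. Over the 7208 protein-coding genes in the count range of the core genes, the median was 0.002 and 3635 were above 0. The core median thus lay 0.14 above the median of all genes. A change of scaling factor moves all genes alike, so the sign of the core median depends on it: with the spike-in totals the core median was -0.12 and that of all genes -0.26. The epidermal, cartilage and adipocyte markers were higher in pup 1, past 2-fold in 10 of 11, 7 of 7 and 9 of 9 genes with enough counts, and the muscle list had a median log2 ratio of 0.19. The leukocyte, fibroblast and erythroid lists had medians of -0.43, -0.28 and -0.13, with 0 genes past 2-fold, and summed to 1471 and 829, 9664 and 6895, and 6159 and 5063 TPM in pups 1 and 2. The part of these tissues and cells in the shift of the core genes was not tested.

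No member with at least 100 mean counts differed 2-fold or more between the pups (0 of 84, beside 2.42% of all genes: 0.145% higher in pup 2 and 2.28% higher in pup 1). All genes include many with fewer counts than the core genes. Of the 7208 protein-coding genes in the core count range, 2 were past 2-fold higher in pup 2 and 89 higher in pup 1. At 1.5-fold the count of members was 1, beside 6.13% of all genes. That gene was Rps27, with a log2 ratio of 0.59, which rests on the division of reads with Rps27rt; the counts of the 2 loci together were 1.34-fold higher in pup 2, short of the limit. Rpl3l, with 0.48, and Rps28, with 0.43, were also among the 4 largest ratios toward pup 2. Rps28 measured 543 and 666 TPM. The largest ratios the other way were small, at -0.19 for Rps27l and Rpl35 and -0.15 for Rpl7l1 and Rpl5. Rpl35 measured 696 and 552 TPM. Rpl39l fell below the limit of counts, and its 77 and 27 counts gave a 2.46-fold higher level in pup 1, with an exact (Clopper-Pearson) 95% interval from 1.57 to 3.96 that covers counting error only.

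**Figure D4:**
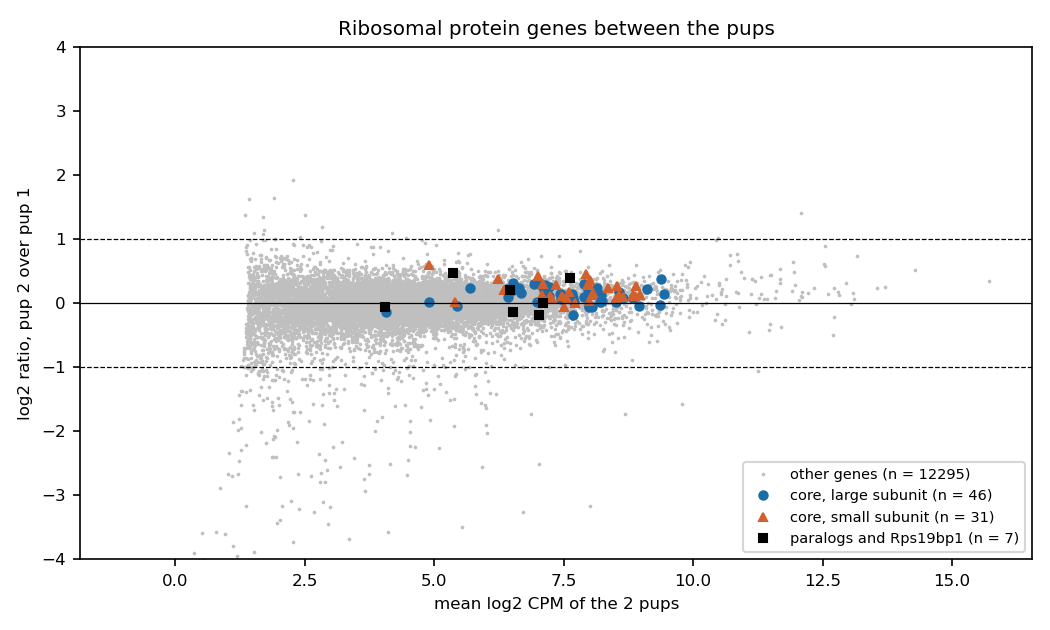
Log2 ratio of pup 2 over pup 1 (TMM-scaled CPM, counts per 1000000) against mean log2 CPM, for genes with at least 100 mean counts; large-subunit core genes are circles, small-subunit core genes triangles, paralogs and Rps19bp1 squares, other genes grey. All 84 members drawn lie between the dashed 2-fold lines, and 66 other genes beyond a log2 ratio of 4 either way are not shown.

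The genes that build and regulate ribosomes were described from lists chosen for this purpose. Beside them, 58.2% of all protein-coding genes were at or above 1 TPM, and 2.42% of all genes with enough counts passed 2-fold between the pups. At that share, lists of this size would hold few or no such genes. All 54 genes of ribosome assembly were at or above 1 TPM, with a median of 22.4 TPM and 0 past 2-fold between the pups. The highest were the nucleolar proteins Npm1 (232 and 261 TPM) and Ncl (153 and 135 TPM), followed by Rrp1 (128 and 115 TPM), a ribosomal RNA processing factor. All 20 genes of RNA polymerase I, which transcribes ribosomal RNA, were expressed at a median of 18.9 TPM, led by Polr2f, Polr2k and Polr2e, subunits that all 3 nuclear polymerases share, and 0 passed 2-fold. All 25 genes of mTORC1 and its control of pyrimidine-tract mRNAs were expressed, led by Eif4ebp1 (337 and 338 TPM), a translational repressor that mTORC1 inactivates, the GTPase Rheb (163 and 162 TPM) and Lamtor1 (117 and 88.9 TPM), an anchor of mTORC1 at the lysosome. Of these, 0 of 24 with enough counts passed 2-fold. The 3 lists had median log2 ratios of -0.02, 0.01 and 0.06, against 0.13 for the core genes.

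Of 10 genes of the Trp53 response that free Rpl5 and Rpl11 can trigger through Mdm2, all 10 were at or above 1 TPM. Cdkn1a, a cell cycle inhibitor that is also high in differentiating muscle, was at 510 and 546 TPM, Ccng1 at 216 and 223 TPM and Phlda3 at 74.9 and 73.9 TPM. Mdm2 itself was at 26.6 and 27.2 TPM. Sesn2, a stress-induced inhibitor of mTORC1, was the 1 gene of the 10 past 2-fold, beside 2.42% of all genes. It was at 3.70 TPM in pup 1 and 1.54 TPM in pup 2. Rps19bp1, the member that is no ribosomal protein, was at 32.2 and 28.1 TPM.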

How the data were processed

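Total RNA of newborn skeletal muscle was measured in 2 pups, 1 library each. The authors deposited expected counts, which need not be whole, with posterior SDs, and TPM, per the file headers. The transcript files also hold each form's percent of its gene's TPM, as deposited. Build mm10 and the GENCODE M4 annotation are given by the accompanying text files; aligner and quantifier: not given in the sources used here. Members, lists and the rule for named genes (paralog pairs, highest and lowest 8 core genes, 4 largest ratios each way, unusual leading transcripts, 3 highest of each pathway list; marker lists as sums) were chosen with earlier results of these data known; 2 of the genes so named are not reported here singly. Symbols, transcripts and coordinates came from the GENCODE M21 annotation (GRCm38, the same build), matched by Ensembl ID. A gene at 0 counts was given a limit of 3 counts. Paralog ratios used log2 of TPM plus 0.1. For ratios between pups, expected counts were rounded, scaled by TMM in edgeR 4.0.16 and taken as log2 CPM with a prior count of 2; the script was tested on simulated data. DESeq2 1.42.0 supplied alternative size factors. Copies were found with blastn 2.17.0 and, as an alternative chosen after seeing the data, their counts were added to the parent gene at its own effective length. The 2 values per gene limit the precision. Pups share a pregnancy, and intervals cover counting error only.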

Additional observations from a re-analysis of the deposited data

How the results depend on the processing

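The main limits are the 2 pups, the division of reads between core genes and their copies, and lengths as short as 255 nt. Of the 86 members, 85 stayed at or above 1 TPM under posterior means, limits of 0.5 and 2 TPM and each pup alone. The members' share of TPM was 5.44% among nuclear protein-coding genes and 4.40% with posterior mean TPM, and their share of counts was 2.11% among nuclear protein-coding genes and 2.26% with copies added. Ratios of CPM without length correction were 0.055 for Rpl22l1 to Rpl22, where the call was lost, 0.47 for Rpl36al to Rpl36a and 2.13 for Rps27l to Rps27, where calls were gained; the length correction was the only change. Rps27l to Rps27 reversed to -1.50 when the level of Rps27rt was added to Rps27, an alternative chosen after seeing the data. No other alternative for the level of whole genes changed the sign of a paralog ratio. Among single forms, the leading protein-coding form of Rpl22l1 was below that of Rpl22 in each pup. The core median ratio between pups was -0.12 with spike-in totals, which rest on 406 and 416 counts. Past the limit between pups there was 1 member with a minimum of 10 mean counts, 1 with no minimum (Rpl39l) and 1 at 1.5-fold (Rps27). The coefficient of variation of core levels was 59.9% per kilobase of full length, 57.2% for genes from 500 nt and 54.0% with copies added, and 62.3% to 63.2% in each pup alone. The median core level was 455 TPM per kilobase of full length, 546 TPM with -ps copies and 573 TPM with all copies, and 462 to 475 TPM in each pup alone. With all copies added at the parent's effective length, 16 members moved by over 1.5 times, up to 15.1-fold for Rpl5. With the -ps copies 8 did. Rpl39l alone moved by over 1.5 times without pup 1. No paired analysis was possible because there is 1 group.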
